A study of Mus musculus with 15 samples.

Results

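The comparison described here sets the hairpin shSiva2, a short hairpin RNA against the mouse gene Siva1, against control hairpins in LSZ2 and LSZ4, mouse cell lines of non-small cell lung cancer. Its members are 11 of the 15 arrays of the study: 4 arrays with shSiva2 (2 from LSZ2 and 2 from LSZ4) and 7 arrays with a control hairpin. They were chosen by the hairpin and line named in the sample titles. The controls were shGFP (1 array from LSZ2, 2 from LSZ4) and shLacZ (2 arrays from each line), hairpins against sequences that mouse cells lack. The 4 arrays of the other Siva hairpin, shSiva1, stayed out of the main comparison and serve below as values set beside it.

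All cells were infected with virus made in 293T cells, a human packaging line. The titles give the vector as pLKO.1 for shGFP, LL37 for shLacZ and pLKO TRC2.0 for shSiva2 and shSiva1, so vector and arm cannot be told apart. The shGFP, shSiva1 and shSiva2 cells were kept in puromycin for 3 days, and the shLacZ cells were not. RNA was taken 2 days after plating at subconfluent density in DMEM with serum, and 200 ng was labelled with Cy3 for 1-colour Agilent arrays. The titles of control arrays carry a number after the hairpin (shGFP1 and shGFP2, shLacz1 and shLacz2), and whether such a number marks a replicate or a different hairpin is not settled by the labels. It is read here as a replicate. The labels name neither the genotype of the tumours from which the lines came nor separate cultures for the replicates. The p-values therefore measure only the spread between these samples, which may be technical.

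Siva1 is a target gene of the transcription factor p53, and its product was described as a protein that promotes apoptosis downstream of receptors of the tumour necrosis factor family. A short hairpin RNA is cut by Dicer into a small RNA that guides the silencing complex to matching transcripts, and it can also lower transcripts that match only its seed. The study asks how lung cancer cells change when Siva is depleted, and the shSiva2 arrays are the readout of 1 of its 2 Siva hairpins.

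Values are given as scaled log2 signal, which is the log2 of the processed spot signal less the 75th percentile of that array, so that a value of 0 marks the brightness of that percentile and levels of different genes cannot be set against each other. The 75th percentile ran from 428 to 1029 intensity units on control arrays and from 499 to 901 on shSiva2 arrays, and 0 spots were saturated. The share of spots well above background was 49.0% to 58.9% on control arrays and 51.0% to 55.5% on shSiva2 arrays. All 7 control arrays lay on 1 slide with 1 scan, and all Siva hairpin arrays on another, so slide and arm cannot be told apart. The first shLacZ array of LSZ4 stood apart from its replicate: their scaled log2 values differed with a standard deviation (SD) of 0.766 over genes, against 0.276 to 0.552 in the other pairs.

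Siva1 fell with shSiva2 in both lines. The values come from a 60-base probe at chr12:113885242-113886093 of the mouse mm9 build, a span longer than the probe. It is shown because every statement on the depth of the knockdown rests on its signal.

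Siva1 probe: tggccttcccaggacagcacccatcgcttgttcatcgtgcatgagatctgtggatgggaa

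Siva1 read 3.59 and 3.46 in LSZ2 and 3.45 and 4.09 in LSZ4 with shSiva2. The control arrays of LSZ2 read 5.29 with shGFP and 5.27 and 5.58 with shLacZ, and those of LSZ4 read 6.47 and 6.49 with shGFP and 5.27 and 6.0 with shLacZ. All 4 shSiva2 arrays lay below every control array. The change was -2.08 (SE 0.24) on the log2 scale in limma's fit, with adjusted p = 0.000151, so that 23.6% of the signal in the controls remained. It was -1.86 in LSZ2 (27.6% left) and -2.29 in LSZ4 (20.5% left), and the difference of -0.43 (SE 0.49) between the lines did not pass the test. Against shGFP alone 19.5% was left and against shLacZ alone 27.1%. A second Siva1 probe, at chr12:113887275-113887334, gave a change of -1.92 (SE 0.23) and 26.4% left. Siva1 read 2.73 and 3.03 in LSZ2 and 2.30 and 3.15 in LSZ4 with shSiva1, lower than with shSiva2 by 0.84 (SE 0.29), which did not pass the test after adjustment (limma, adjusted p = 0.0528).

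**Figure D1:**
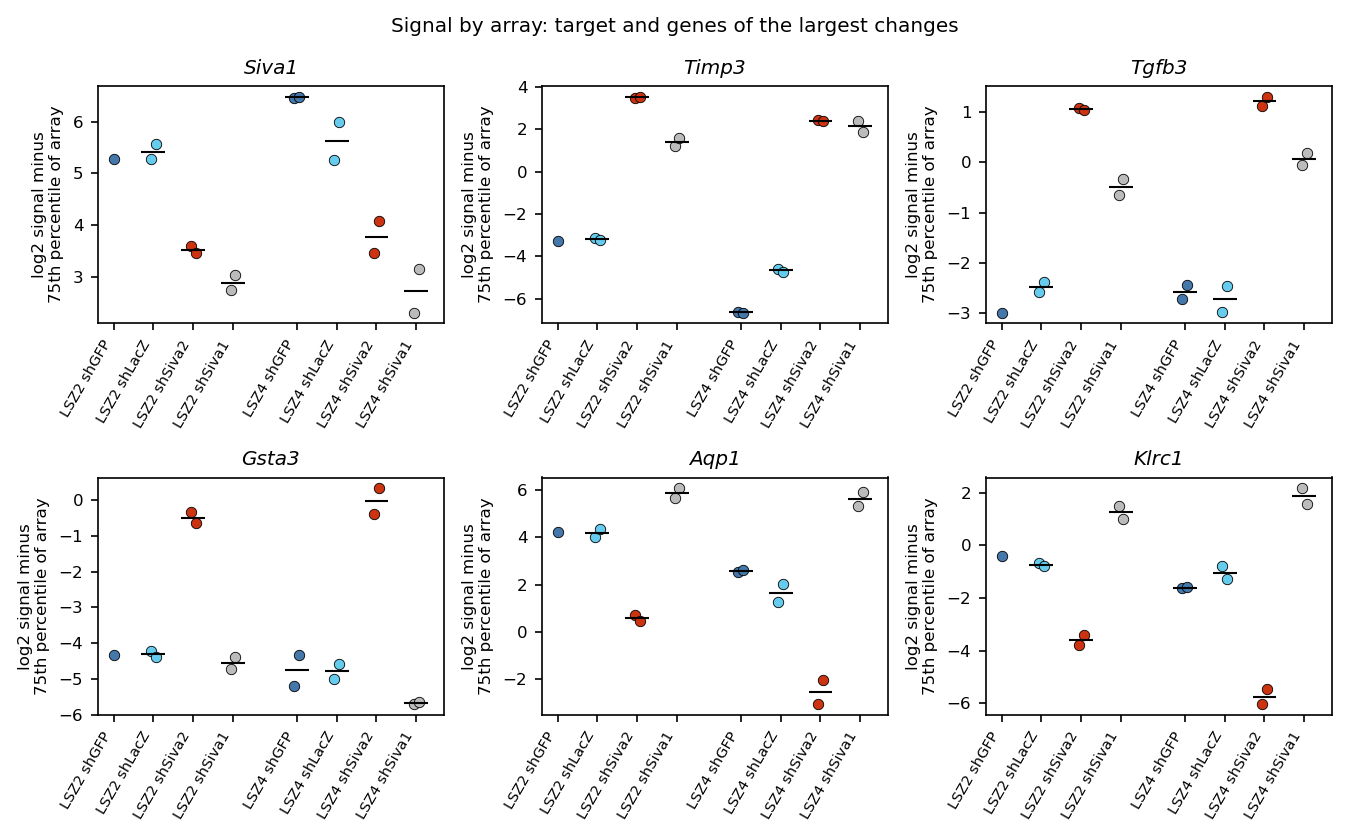
Scaled log2 signal (y axis of each panel) of 6 genes on each of the 15 arrays, by line and hairpin (x axis). Points are arrays and bars are means of groups with more than 1 array. Siva1 was lower on all 4 shSiva2 arrays than on all 7 controls, Gsta3 was high with shSiva2 alone, and Aqp1 and Klrc1 were below the controls with shSiva2 and above them with shSiva1.

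Over all 21772 genes tested, 2513 (11.5%) passed an adjusted p of 0.05 between shSiva2 and control, 1242 higher (5.7%) and 1271 lower (5.84%). At least a 2-fold change was seen for 615 of the higher and 518 of the lower genes. Within LSZ2 550 genes passed (2.53%), and within LSZ4 1411 (6.48%), where 2.8% were lower. Without the first shLacZ array of LSZ4, the pooled count was 5183, with 1959 higher and 3224 lower, and all 2513 genes were among them. Leaving out the first LSZ4 shSiva2 array gave the lowest count, 1585, and the second gave 1608. The counts without the second LSZ2 shSiva2 array (1701) and the first (1725) were lower than 2513 by under 1.5 times. Of list members called, only those that kept their call when any single one of the 11 arrays was left out are named with values in the paragraphs on gene groups, and the others are counted, except for B2m and 3 small RNA processing genes. There, a percentage after the counts of a list is the share of its measured members that passed in either direction, to be read against 11.5% of all genes. Normexp, a background correction used as an alternative, compresses changes of faint probes. With it 66 of the 247 named called changes were over 1.5 times smaller and 26 lost their call, among them those given below for Igtp, Sdc3, Spred3, Grhl2, Adamts4, Krt15 and Il15. With 1 mean for each of the 6 line and hairpin groups, 84 of the 247 lost their call. Among these were Atf3, Errfi1, Ern1, Cldn12 and Ctse, which are given below. With those groups as a random block 75 lost it.

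The largest rise was that of Timp3, a matrix-bound inhibitor of metalloproteinases (probe at chr10:85811696-85811755, mm9). Timp3 read 3.47 and 3.54 in LSZ2 and 2.43 and 2.38 in LSZ4 with shSiva2, and -6.65 to -3.11 (median -4.61) in the controls. The controls of LSZ4 were lower than those of LSZ2, and the shSiva2 arrays lay far above both. The log2 change was 7.42 (SE 0.42, adjusted p = 1.29e-06). Of the controls 4 of 7 were well above background, and with normexp the change was 5.54. With shSiva1 the change from the same controls was 6.28 (SE 0.54), and the difference between the Siva hairpins, 1.19 (SE 0.61), did not pass the test (adjusted p = 0.198).

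Stra6, the receptor through which cells take up retinol from its plasma carrier, had 0 of 7 control arrays well above background. Stra6 read -2.23 and -2.00 in LSZ2 and -1.65 and -1.53 in LSZ4 with shSiva2 against -7.72 to -6.56 (median -7.12) in the controls (probe at chr9:58001701-58001760, mm9). It was at least 9.41-fold higher with shSiva2 (adjusted p = 6.48e-09), a bound set, in each control array, at the faintest probe still well above background. Stra6 read -3.30 and -2.96 in LSZ2 and -5.56 and -6.67 in LSZ4 with shSiva1, so the level differed by line there, and shSiva2 was higher by 2.77 (SE 0.60, adjusted p = 0.00386). Spib, an Ets family transcription factor of lymphoid cells, Skap1, an adaptor of T cell receptor signalling, Prr5l, a protein that binds mTOR complex 2, and Fam131a also had 0 of 7 control arrays above background. They were at least 8.17-fold, 4.7-fold, 5.06-fold and 3.38-fold higher, with adjusted p = 6.45e-06, 1.62e-06, 0.00368 and 4.94e-07. Bounds here and below hold for the processed signal and compare means over both lines. The faintest probe well above background is a low floor, so the bounds are not strict limits. Prr5l read far lower in LSZ4 than in LSZ2 with shSiva2 (values below), so its bound need not hold in LSZ4. The lowest log2 change of Fam131a under any alternative was 1.03, less than its bound.

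The transforming growth factor beta (TGF-beta) ligand genes Tgfb2 and Tgfb3 were among the 15 largest rises. Tgfb3 read 1.08 and 1.04 in LSZ2 and 1.12 and 1.30 in LSZ4 with shSiva2, and -2.98 to -2.39 (median -2.58) in the controls. The 4 shSiva2 arrays lay close together and far above every control. Tgfb3 changed by 3.79 (SE 0.16, adjusted p = 1.18e-07), and Tgfb2 by 3.95 (SE 0.27, adjusted p = 4.29e-06), with 3 of 7 control arrays above background for Tgfb2. Thbs1, a secreted thrombospondin that can activate latent TGF-beta, read 1.04 and 1.18 in LSZ2 and 1.07 and 0.18 in LSZ4 against -4.83 to -1.11 (median -3.05). It changed by 3.66 (SE 0.45, adjusted p = 0.000249), and 5 of 7 controls were above background.

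Klhl30, a kelch family gene, read 1.98 and 2.09 in LSZ2 and 2.25 and 2.79 in LSZ4 against -2.64 to -1.39 (median -2.40), a change of 4.44 (SE 0.20, adjusted p = 2.12e-07). Depp1, known as a target of FOXO transcription factors, read -0.55 and -0.64 in LSZ2 and 1.17 and 1.28 in LSZ4 against -4.78 to -2.08 (median -3.85), a change of 3.96 (SE 0.57, adjusted p = 0.000777), and it did not pass in LSZ2 alone (2.48, adjusted p = 0.0695). Ascl3, a basic helix-loop-helix factor, changed by 4.28 (SE 0.34), Fam20a, a secretory pathway pseudokinase, by 4.16 (SE 0.45), and Pitpnm3 by 3.87 (SE 0.27). For these 3 genes, 3, 3 and 1 of 7 controls were above background. With normexp their changes were 2.45, 2.14 and 1.36. For Fam20a and Pitpnm3 the shSiva2 less shSiva1 difference was -0.19 (SE 0.57, adjusted p = 0.85) for Fam20a and -2.15 (SE 0.38, adjusted p = 0.000735) for Pitpnm3.

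The largest fall was that of Aqp1, the water channel aquaporin 1 (probe at chr6:55298480-55298539, mm9). Aqp1 read 0.71 and 0.48 in LSZ2 and -3.04 and -2.01 in LSZ4 with shSiva2, against 4.0 to 4.34 in the LSZ2 controls and 1.25 to 2.60 in the LSZ4 controls. In each line the shSiva2 arrays were below every control. The change was -4.14 (SE 0.30, adjusted p = 7.23e-06), so that 5.69% of the signal in the controls remained. With shSiva1 it was 5.64 and 6.06 in LSZ2 and 5.33 and 5.90 in LSZ4, above every control of each line, and the change from control there was 2.60 (adjusted p = 0.000387). Over all genes 25.7% passed between shSiva1 and control, 9.14% higher and 16.6% lower. The difference between the Siva hairpins was -6.70 (SE 0.47, adjusted p = 1.62e-07), on arrays of the same slide.

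Klrc1 and Klrc3, which encode NKG2 receptors best known from natural killer cells, fell together. Klrc1 read -3.80 and -3.40 in LSZ2 and -6.03 and -5.47 in LSZ4 with shSiva2, and -1.61 to -0.39 (median -0.80) in the controls (probe at chr6:129616237-129616296, mm9). The change was -3.75 (SE 0.28, adjusted p = 8.74e-06) for Klrc1 and -3.22 (SE 0.31, adjusted p = 3.86e-05) for Klrc3, and both were above background on 2 of 4 shSiva2 arrays. With normexp the changes were -2.05 and -0.97. Both rose with shSiva1, by 2.53 and 2.36 (adjusted p = 0.000173 and 0.000266). Their probes can share signal with close paralogs, which these arrays do not tell apart.

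Tafa5, a secreted chemokine-like protein, changed by -2.92 (SE 0.13, adjusted p = 2.12e-07) and Alpi, an intestinal alkaline phosphatase, by -3.21 (SE 0.32, adjusted p = 5.65e-05). The smallest change of Alpi under any alternative was -1.77. C4b, a complement component, read -1.85 and -1.70 in LSZ2 and -1.93 and -1.50 in LSZ4 against 0.21 to 1.39 (median 0.83) and changed by -2.60 (SE 0.21, adjusted p = 1.46e-05). Pilra, an inhibitory receptor of myeloid cells, read -0.21 and -0.13 in LSZ2 and 0.92 and 0.99 in LSZ4 against 2.15 to 3.54 (median 2.95), with a change of -2.42 (SE 0.15, adjusted p = 1.89e-06). All 3 of its probes fell, by -3.02 to -2.07. With shSiva1 Pilra read 4.02 and 4.36 in LSZ2 and 4.90 and 5.24 in LSZ4, above every control.

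Slc6a19, an epithelial transporter of neutral amino acids, was well above background on all 7 controls and on 0 of 4 shSiva2 arrays, and was at least 2.94-fold lower (adjusted p = 0.000228). Plxna4, a semaphorin receptor, Arap3, a GTPase-activating protein, and Glyat, a mitochondrial glycine acyltransferase, changed by -2.46, -2.45 and -2.53 (SE 0.20, 0.24 and 0.20), that of Glyat by -0.68 with normexp. Cldn3, a tight junction claudin, and Hr, the corepressor hairless, differed widely between the lines in the controls and changed by -2.43 (SE 0.25) and -2.41 (SE 0.24). Aass, the first enzyme of lysine breakdown, changed by -2.41 (SE 0.19) with shSiva2 and by -2.45 (SE 0.19) with shSiva1. Rufy4, which is linked to autophagosome traffic, changed by -2.61 (SE 0.26).

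All 4 shSiva2 arrays lay above every control array of their line for 15 of 15 of the leading rises and below them for 15 of 15 of the falls. Over all genes tested this held for 7.53% above and 7.03% below. The same 30 genes passed against shGFP alone and against shLacZ alone. So did 726 of all 1242 genes higher than control and 624 of all 1271 lower genes. Over all genes tested 10.4% passed against shGFP and 9.09% against shLacZ. The 30 genes were picked on the same arrays, by a contrast that pools both controls, so the counts are a description.

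**Figure D2:**
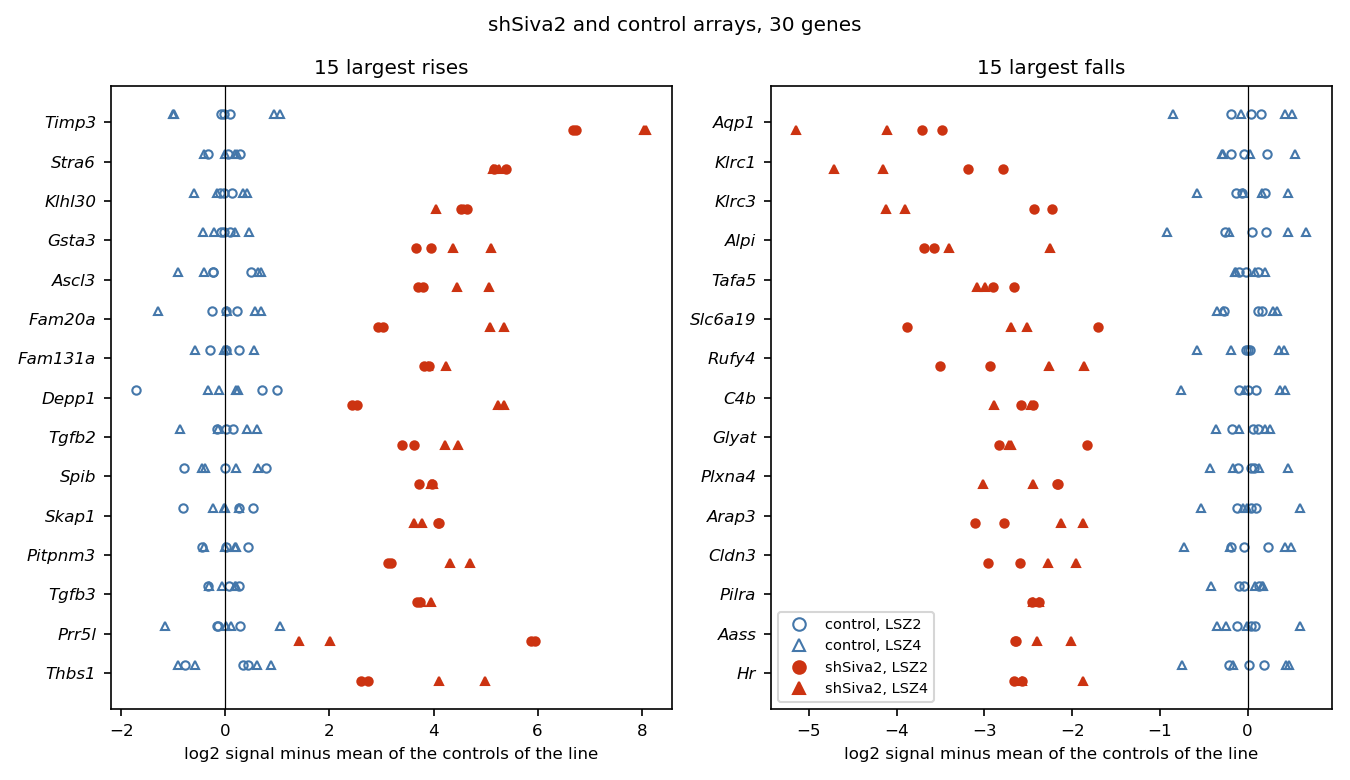
Scaled log2 signal of each control and shSiva2 array less the mean of the controls of its line (x axis) for the 15 largest rises (left) and the 15 largest falls (right). Open symbols are controls and filled symbols shSiva2 arrays, with circles for LSZ2 and triangles for LSZ4. No filled symbol overlaps an open one of its line, and Prr5l differs most between the lines.

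The list of NRF2 targets and glutathione enzymes held the most rising members. NRF2, a transcription factor released from its inhibitor Keap1 under oxidative and electrophilic stress, activates genes through antioxidant response elements. Its textbook targets include glutathione transferases, which conjugate electrophiles to glutathione, and Gclc, the catalytic subunit of the enzyme that limits glutathione synthesis. Of 47 measured genes of the list, 14 rose and 1 fell (31.9%, against 11.5% of all genes), and the median change was 0.23 above that of all genes. Most of the rises were glutathione transferases of the alpha and mu classes. The other 32 members did not pass, among them Gclm, Txnrd1, Prdx1 and Nfe2l2, the gene of NRF2 itself. The fall was that of Keap1, and its call was lost when some single array was left out. The count of rises ran from 12 to 15 with single arrays left out, and 3 fell without the first LSZ4 shLacZ array. To show a promoter of 2 rising members, the 250 bases before the RefSeq start site (GRCm38.p6) follow, 5′ to 3′, with matches to the antioxidant response element core TGACNNNGC in capitals.

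Gsta3, chr1:21240335-21240584, plus strand: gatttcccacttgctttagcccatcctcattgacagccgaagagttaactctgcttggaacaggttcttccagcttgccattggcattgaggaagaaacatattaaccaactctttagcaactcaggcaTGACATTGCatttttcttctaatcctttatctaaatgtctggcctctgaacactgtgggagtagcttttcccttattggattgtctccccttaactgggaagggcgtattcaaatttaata
Gstm5, chr3:107895604-107895853, plus strand: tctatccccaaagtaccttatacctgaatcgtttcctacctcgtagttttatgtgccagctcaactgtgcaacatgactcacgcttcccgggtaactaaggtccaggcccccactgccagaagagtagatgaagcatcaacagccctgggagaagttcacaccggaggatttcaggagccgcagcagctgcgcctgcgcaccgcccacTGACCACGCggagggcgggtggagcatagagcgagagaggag

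The match began at position -121 from the start site of Gsta3 and at -42 from that of Gstm5. Searched on both strands, the core was found in 3 of 11 rising members with an entry in the RefSeq table (Gsta3, Gstm5 and Abcc4), in 10 of 40 measured members (25%) and in 1519 of 11113 tested genes with an entry (13.7%). A match is a run of letters and not evidence of binding.

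Gsta3 read -0.35 and -0.64 in LSZ2 and -0.39 and 0.32 in LSZ4 with shSiva2, -5.20 to -4.21 (median -4.39) in the controls and -4.73 and -4.38 in LSZ2 and -5.70 and -5.64 in LSZ4 with shSiva1. Signal was thus high on the 4 shSiva2 arrays and within or below the range of the controls with the other Siva hairpin. The change was 4.30 (SE 0.24, adjusted p = 1.04e-06), and the difference from shSiva1 was 4.85 (SE 0.29, adjusted p = 2.78e-08). Cbr3, a carbonyl reductase, read 4.65 and 4.03 in LSZ2 and 5.52 and 6.47 in LSZ4 against 2.46 to 4.19 (median 2.98). It rose by 2.08 (adjusted p = 0.000752) with shSiva2, and its change with shSiva1 was -2.59 (adjusted p = 0.000159).

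Of the other glutathione transferases, Gsta4 rose by 1.38 (SE 0.20), Gsta2 by 1.21 (SE 0.20) and Gsta1 by 1.0 (SE 0.21) in the alpha class. In the mu class Gstm2 rose by 2.31 (SE 0.18), Gstm3 by 1.43 (SE 0.23), Gstm4 by 1.35 (SE 0.21), Gstm1 by 1.30 (SE 0.21) and Gstm5 by 0.67 (SE 0.14). These classes hold near-identical copies whose probes may share signal, so the members are not independent. Gpx2, a glutathione peroxidase, rose by 1.21 (adjusted p = 0.00253), and Gclc by 0.69 (adjusted p = 0.00682). Of the 14 rising members, 12 were also higher with shSiva2 than with shSiva1 at an adjusted p of 0.05, as were 628 of all 1242 genes higher than control. These genes were picked on the same shSiva2 arrays, so the counts are a description. For Gstm2 the difference between the Siva hairpins was -0.023 (SE 0.21).

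**Figure D3:**
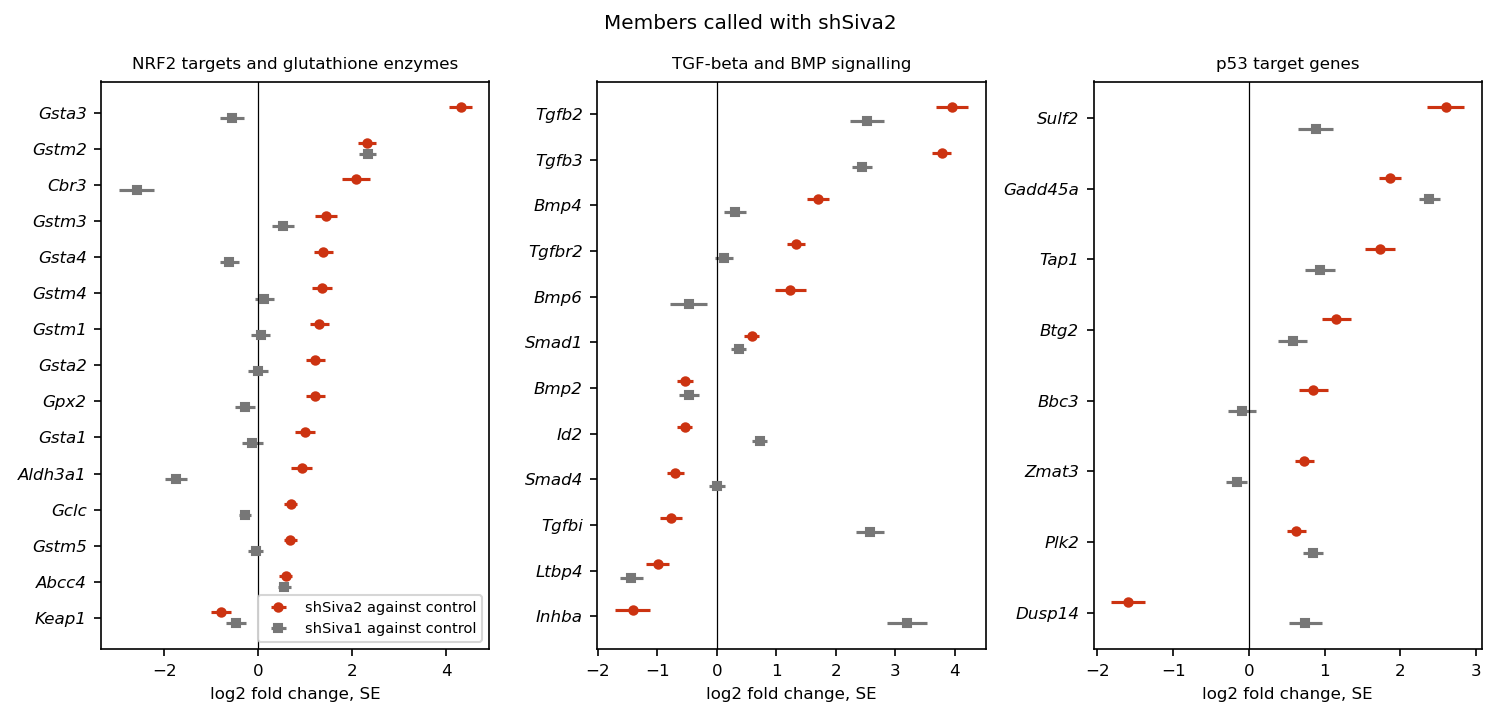
Log2 fold change with standard error (x axis) of shSiva2 against control (red circles) and of shSiva1 against control (grey squares) for the members of 3 lists called with shSiva2 (rows). Gsta3, Cbr3 and Aldh3a1 lie far apart for the Siva hairpins, Gstm2 and Abcc4 coincide, and Inhba and Tgfbi lie on opposite sides of 0.

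Drug-metabolising enzymes outside that list went both ways, with 4 of 33 measured members higher and 5 lower (27.3%). Cyp2b10, a cytochrome P450 of the liver's xenobiotic response, had 0 of 7 controls above background and was at least 2.58-fold higher with shSiva2 (adjusted p = 4.19e-06). The lowest log2 change of Cyp2b10 under any alternative was 0.81, less than that bound. Sult1c2, a sulfotransferase, rose by 3.1 (adjusted p = 0.00114), with 3 of 7 controls above background. Cyp4f14 changed by -1.84 (adjusted p = 0.0109), and the close paralogs Cyp2c66 and Cyp2c65 by -1.53 and -1.43 (adjusted p = 0.00437 and 0.00993). The rises numbered 2 without the LSZ2 shGFP array, the first LSZ2 shLacZ array, either LSZ2 shSiva2 array or the second LSZ4 shSiva2 array.

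Of the 35 measured members of the p53 list, which also holds Trp53, 7 rose and 1 fell (22.9%, against 11.5% of all genes). Their median change was 0.29 above all genes. The other 27 members did not pass, among them Cdkn1a, Mdm2, Ccng1, Bax and Trp53, the gene of p53 itself. Sulf2, an extracellular sulfatase, read -0.64 and -0.17 in LSZ2 and -1.38 and -0.81 in LSZ4 against -4.67 to -2.27 (median -4.04) in the controls. Every shSiva2 array was above every control of its line, and the change was 2.60 (SE 0.24, adjusted p = 3.65e-05). Gadd45a, a growth arrest and DNA damage gene, read 0.64 and 0.73 in LSZ2 and 0.89 and 0.83 in LSZ4 against -1.31 to -0.69 (median -1.11), and changed by 1.87 (SE 0.14, adjusted p = 8.87e-06). Btg2, an antiproliferative factor, Zmat3, a p53-induced RNA-binding protein, and Plk2, a polo-like kinase, rose by 1.15 (SE 0.19), 0.73 (SE 0.13) and 0.63 (SE 0.12). Dusp14, a phosphatase, changed by -1.59 (SE 0.22). Of the 7 rises 4 were higher than with shSiva1, as were 628 of all 1242 genes higher than control. Gadd45a was lower than with shSiva1, a difference of -0.51 (SE 0.16, limma, adjusted p = 0.0362). The count of rises was 14 without the first LSZ4 shLacZ array and 6 or 7 without any other.

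Among death regulators, 4 of 37 measured members rose and 3 fell (18.9%), with a median near that of all genes (0.021 above it, with the opposite sign under 1 of 22 alternatives). Bid, a BH3-only protein cleaved by caspase 8, rose by 0.93 (SE 0.16, adjusted p = 0.00198). Each of the other 6 calls was lost when some single array was left out. The rises numbered 1 without the second LSZ4 shSiva2 array and 2 without the LSZ2 shGFP array, the first LSZ2 or second LSZ4 shLacZ array, or either LSZ2 shSiva2 array. The falls numbered 6 without the first LSZ4 shLacZ array and 1 or 0 without any other. Of 12 measured genes for proteins reported to bind Siva, 0 passed in limma's fit in either direction (3 had an unadjusted p under 0.05, and 2 fell without the first LSZ4 shLacZ array), and the smallest adjusted p were those of Bcl2 (-0.38, 0.0695) and Abl2 (-0.35, 0.11). Both genes were lower with shSiva2 than with shSiva1, by differences of -0.71 (SE 0.13, adjusted p = 0.00137) and -0.83 (SE 0.13, adjusted p = 0.000347).

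TGF-beta and bone morphogenetic protein (BMP) ligands signal through paired receptor kinases to Smad proteins. Of 40 measured members of this group, 6 rose and 6 fell (30%). Beside Tgfb2 and Tgfb3, the ligands Bmp4 and Bmp6 rose by 1.71 (SE 0.19) and 1.24 (SE 0.26) and the receptor Tgfbr2 by 1.33 (SE 0.15). Tgfbr2 read 5.48 and 5.47 in LSZ2 and 5.47 and 5.62 in LSZ4 against 3.68 to 4.45 (median 4.23), with all 4 shSiva2 arrays above the controls of their line. Inhba, the subunit of activin A, changed by -1.41 (adjusted p = 0.00825), Ltbp4, which binds latent TGF-beta, by -1.00 (adjusted p = 0.00615), and Smad4, the shared Smad, by -0.70 (adjusted p = 0.00631). Inhba read -0.88 and -0.38 in LSZ2 and -0.29 and -0.82 in LSZ4 with shSiva2, 0.073 to 2.22 (median 0.65) in the controls and 3.70 and 2.87 in LSZ2 and 5.33 and 4.11 in LSZ4 with shSiva1. The difference between the Siva hairpins was -4.59 (SE 0.38, adjusted p = 6.59e-07) for Inhba. The count of falls was 3 without the second LSZ2 or the second LSZ4 shSiva2 array and 10 without the first LSZ4 shLacZ array.

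The group of YAP and TEAD targets with the CCN and thrombospondin genes had 7 of 24 measured members higher and 2 lower (37.5%). YAP is the growth-promoting coactivator that the Hippo kinases restrain. All 7 rises kept their call with any array left out. The falls numbered 0 without the first LSZ4 shSiva2 array, 1 without the second LSZ2 shSiva2 array and 5 without the first LSZ4 shLacZ array. Beside Tgfb2 and Thbs1 the rises were Arhgef17, a guanine nucleotide exchange factor, at 2.39 (SE 0.28), F3, which encodes tissue factor, at 2.08 (SE 0.26), Ankrd1 at 1.98 (SE 0.30), Ccn1 at 1.97 (SE 0.19) and Lats2, a Hippo kinase, at 0.98 (SE 0.14). Ankrd1 read 2.68 and 2.95 in LSZ2 and 0.55 and -0.29 in LSZ4 against -2.98 to 1.18 (median -1.42). F3 was at -0.19 (adjusted p = 0.577) with shSiva1, and lower there than with shSiva2 by 2.27 (SE 0.27, adjusted p = 2.53e-05).

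Matrix proteases and their inhibitors had 8 of 33 measured members higher and 2 lower (30.3%). Beside Timp3, the intracellular protease inhibitors Serpinb9 and Serpinb6b rose by 1.35 (SE 0.25) and 1.24 (SE 0.23), Adam8, a membrane metalloproteinase, by 0.96 (SE 0.17), and Serpinh1, the collagen chaperone, by 0.86 (SE 0.18). Serpinb1a and the aggrecanase Adamts4 changed by -1.33 (SE 0.20) and -1.14 (SE 0.23). The count of rises was 5 without the second LSZ4 shSiva2 array, and the count of falls 6 without the first LSZ4 shLacZ array.

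Of 41 measured structural matrix genes 4 rose and 6 fell (24.4%). Sdc3, a cell surface proteoglycan, was above background on 4 of 7 controls and 0 of 4 shSiva2 arrays, and was at least 2.49-fold lower. Nid1, a basement membrane linker, changed by -1.74 (SE 0.15, adjusted p = 2.08e-05). Col5a1 and Col27a1 changed by -1.59 (SE 0.19) and -1.29 (SE 0.18), and Itgb3, an integrin subunit, by -1.24 (SE 0.16). Col5a1 read -1.16 and -0.85 in LSZ2 and -1.82 and -1.39 in LSZ4 with shSiva2, -0.41 to 0.49 (median 0.30) in the controls and 2.41 and 2.91 in LSZ2 and 2.91 and 3.37 in LSZ4 with shSiva1. All 6 falling members were lower than with shSiva1 as well, as were 622 of all 1271 genes lower than control, all picked on the same shSiva2 arrays. Of the 4 rises none kept its call with every array left out: 0 were left without the second LSZ4 shSiva2 array, 1 without the first or without the LSZ2 shGFP array, 2 without the first LSZ2 shSiva2 or second LSZ4 shLacZ array, and 7 without the first LSZ4 shLacZ array.

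In the mesenchymal list 2 of 14 measured members rose and 3 fell (35.7%). Acta2, smooth muscle actin, rose by 1.83 (SE 0.36, adjusted p = 0.0059), and Fn1, fibronectin, by 1.45 (SE 0.18, adjusted p = 0.000263). Pdgfb, a growth factor, changed by -1.15 (adjusted p = 0.00518). The falls numbered 1 without the first LSZ4 shSiva2 array.

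Immediate early genes are transcribed within minutes of a growth or stress signal, many of them for AP-1 and zinc finger factors. Of 30 measured, 8 rose and 3 fell (36.7% against 11.5%). Egr1 read 0.36 and 0.27 in LSZ2 and 1.36 and 1.74 in LSZ4 with shSiva2, against -1.65 to -0.87 (median -1.29) in the controls. It changed by 2.20 (SE 0.25, adjusted p = 0.000128). Klf2, a Krüppel-like factor, rose by 1.70 (SE 0.22), Jun by 0.95 (SE 0.19) and Atf3 by 0.88 (SE 0.19), and Klf4 changed by -1.11 (SE 0.23). Egr1 and Klf2 were higher than with shSiva1, by 2.11 and 1.51 (adjusted p = 4.27e-05 and 0.000447), and Jun was lower, a difference of -1.08 (SE 0.23, adjusted p = 0.00299). The falls numbered 1 without the second LSZ2 or second LSZ4 shSiva2 array and 7 without the first LSZ4 shLacZ array.

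Dusp1, a phosphatase that switches MAP kinases off and belongs to both lists, rose by 1.63 (SE 0.14, adjusted p = 2.13e-05). Of 39 measured members of the MAPK group, 7 rose and 1 fell (20.5%). Errfi1, an inhibitor of the epidermal growth factor receptor, rose by 0.77 (adjusted p = 0.00195). Spred3 had 0 of 7 controls above background and was at least 1.47-fold higher (adjusted p = 0.00306). The fall was that of Dusp14. With single arrays left out, the rises numbered 4 (without the LSZ2 shGFP array, the first LSZ2 shLacZ array, either LSZ2 shSiva2 array or the second LSZ4 shSiva2 array) to 10 (without the first LSZ4 shLacZ array, where 4 fell).

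Interferon-stimulated genes had 9 of 38 measured members higher and 2 lower (28.9%), and their median change was 0.31 above all genes. The 3 largest rises were genes of peptide supply to major histocompatibility complex (MHC) class I. Tap2, a peptide transporter subunit, read 2.29 and 2.20 in LSZ2 and 2.94 and 3.07 in LSZ4 against -0.47 to 1.07 (median 0.36), a change of 2.29 (SE 0.24, adjusted p = 7.55e-05). Psmb9, an immunoproteasome subunit, changed by 1.92 (SE 0.21, adjusted p = 0.00012) and Tap1, which is also on the p53 list, by 1.73 (SE 0.19, adjusted p = 0.000126). Tap2 and Psmb9 did not pass between the Siva hairpins (0.33, SE 0.28, and -0.10, SE 0.24).

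Igtp and Ifi47, GTPases induced by interferon gamma, rose by 1.12 (SE 0.19) and 0.92 (SE 0.15), Dhx58, a helicase of RNA sensing, by 1.06 (SE 0.15) and Ifi27 by 0.97 (SE 0.18). Oasl1, a relative of the oligoadenylate synthetases, changed by -1.63 (SE 0.22). Between the Siva hairpins Igtp was lower with shSiva2, a difference of -2.16 (SE 0.20, adjusted p = 2.06e-06), and Dhx58 was higher, a difference of 1.70 (SE 0.17, adjusted p = 4.73e-06). Over the list, 6 members were higher and 11 lower with shSiva2 than with shSiva1, against 10.6% and 8.48% of all genes. Its falls numbered 1 without either LSZ4 shSiva2 array and 5 without the first LSZ4 shLacZ array. In the MHC class I group, 4 of 24 measured members rose and 0 fell (16.7%, against 11.5% of all genes): Tap1, Tap2, Psmb9 and B2m. Without the first LSZ4 shLacZ array 4 of the group fell.

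NF-kB subunits, inhibitors and targets had 7 of 30 measured members higher and 4 lower (36.7%). Csf1, whose probes disagreed in sign, counts among the 7 rises by its highest-signal probe. Vcam1, an adhesion molecule, rose by 1.93 (SE 0.26, adjusted p = 0.000519), Tnfaip3, which encodes the feedback inhibitor A20, by 1.52 (SE 0.15, adjusted p = 5.65e-05), and Tnip3, its partner, by 1.27 (SE 0.16, adjusted p = 0.000325). Traf1, a signalling adaptor, read -4.02 and -4.21 in LSZ2 and -2.35 and -1.77 in LSZ4 with shSiva2, -3.49 to 0.03 (median -0.84) in the controls and 0.34 and 0.87 in LSZ2 and 2.98 and 3.63 in LSZ4 with shSiva1. It changed by -1.24 (adjusted p = 0.0049) with shSiva2 and by 3.81 (adjusted p = 3.59e-08) with shSiva1. Ccl7, a chemokine for monocytes, changed by -1.43 (adjusted p = 0.000153) and by 3.78 (adjusted p = 4.95e-09). The smallest change of Ccl7 with shSiva2 under any alternative was -0.48. The rises numbered 4 without the second LSZ4 shSiva2 array, and the falls 2 without the second LSZ2 or first LSZ4 shSiva2 array and 9 without the first LSZ4 shLacZ array.

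Chemokines, interleukins and their receptors had 7 of 34 measured members higher and 3 lower (29.4%). Il18 rose by 1.73 (SE 0.34), Il34, a ligand of the colony-stimulating factor 1 receptor, by 1.49 (SE 0.20) and the decoy receptor Ackr3 by 1.24 (SE 0.17). Csf1 and Ccl25 count among the 7 rises by their highest-signal probe. The probes of each disagreed in sign, so no change is given for those genes. Il10rb, a receptor chain, and Il15 changed by -1.37 (SE 0.15) and -0.75 (SE 0.15). Of the whole list 1 member was higher and 13 were lower with shSiva2 than with shSiva1, against 10.6% and 8.48% of all genes. Without the first LSZ4 shLacZ array 7 fell.

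Genes of epithelial junctions and keratins had 11 of 51 measured members higher and 6 lower (33.3%). Gjb2, a gap junction connexin, read 0.34 and 0.30 in LSZ2 and -0.64 and -0.49 in LSZ4 against -2.69 to -1.33 (median -2.26) and changed by 1.92 (SE 0.16, adjusted p = 1.56e-05). Grhl3, a grainyhead factor of barrier epithelia, rose by 1.80 (SE 0.21, adjusted p = 0.000148), and Ehf, an epithelial Ets factor, by 1.63 (SE 0.24, adjusted p = 0.000769). The keratins moved apart: Krt14, Krt15 and Krt23 rose by 1.11, 0.85 and 1.02 (SE 0.22, 0.17 and 0.15), and Krt20 changed by -1.56 (SE 0.14). So did the grainyhead family, in which Grhl1 rose by 0.61 (SE 0.12) and Grhl2 changed by -0.97 (SE 0.19). Beside Cldn3 the claudins Cldn6 and Cldn12 changed by -0.89 (SE 0.18) and -0.70 (SE 0.13), and Cgn, cingulin, rose by 0.87 (SE 0.12).

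Of 33 measured lineage genes of lung and gut, 5 rose and 6 fell (33.3%). Agr2, a disulfide isomerase of mucus cells, read -1.76 and -2.00 in LSZ2 and -3.05 and -3.10 in LSZ4 against -6.78 to -3.07 (median -5.45) and changed by 2.48 (SE 0.36, adjusted p = 0.00082), with 3 of 7 controls above background and a change of 0.97 with normexp. The trefoil factors Tff3 and Tff1 rose by 2.34 (SE 0.32) and 1.90 (SE 0.38), the progenitor factor Sox9 by 1.59 (SE 0.26) and Cebpa by 1.26 (SE 0.22). Beside Alpi, Ctse, a gastric protease, changed by -0.87 (SE 0.17). With shSiva1 Ctse rose by 2.73 (adjusted p = 4.27e-07). The falls numbered 3 without the second LSZ4 shSiva2 array.

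**Figure D4:**
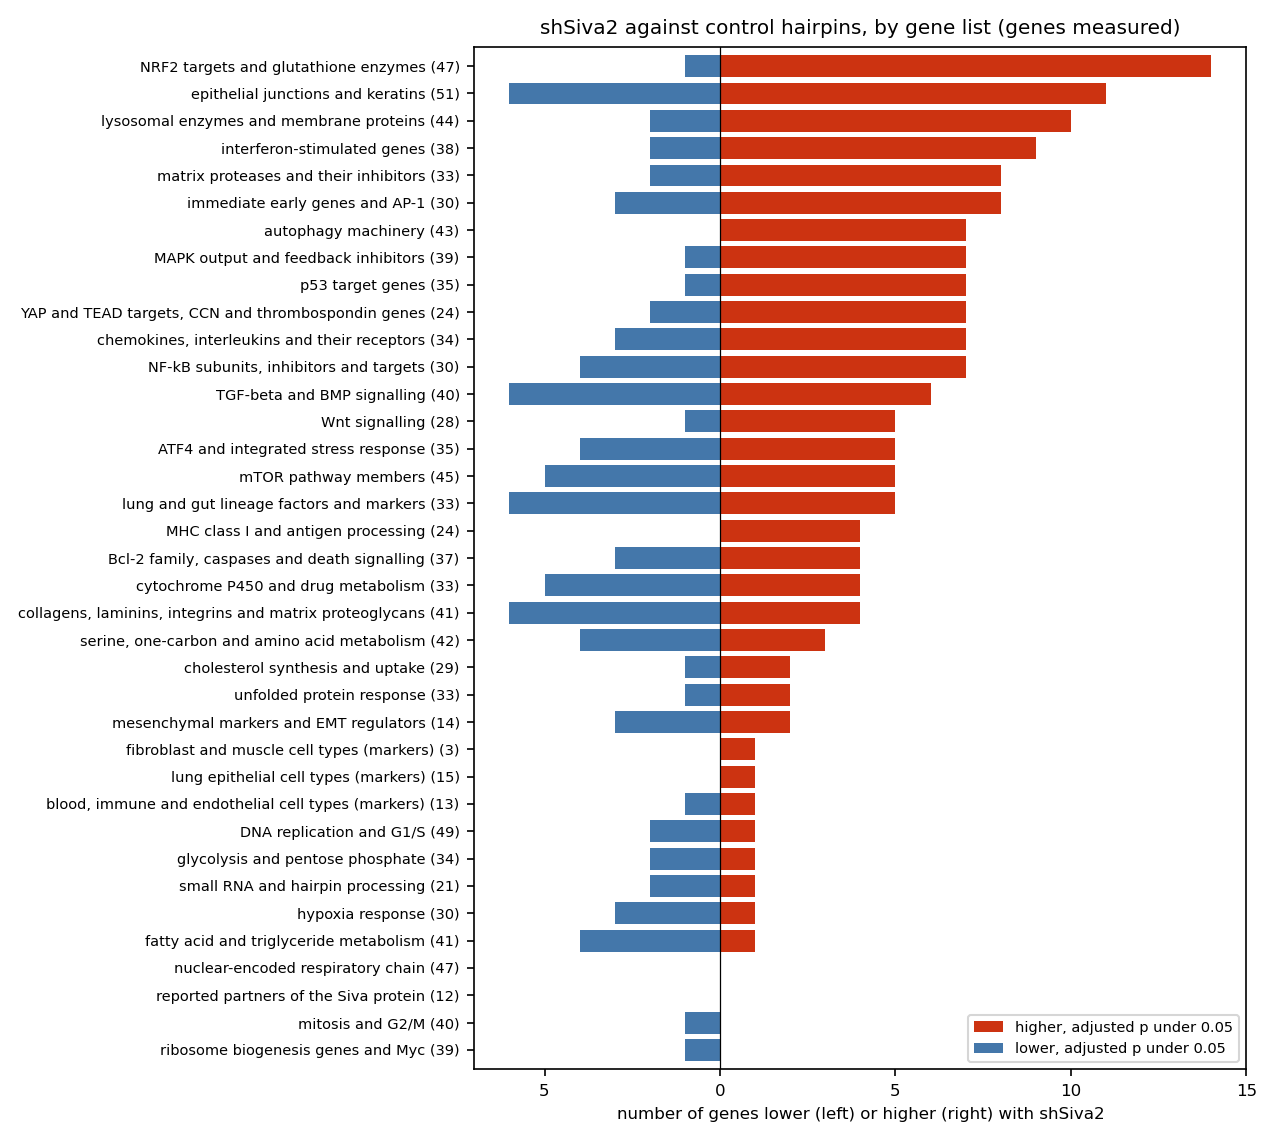
Number of genes called higher (right, red) or lower (left, blue) with shSiva2 against control at an adjusted p under 0.05 (x axis) in each of 37 gene lists (rows, with the number of genes measured). The list of NRF2 targets and glutathione enzymes has 14 higher and 1 lower, and the respiratory chain and the reported Siva partners have 0 of each.

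Lysosomal genes had the largest median of the lists, 0.43 above all genes, with 10 of 44 measured higher and 2 lower (27.3%). Hexa, a lysosomal glycosidase, rose by 1.42 (SE 0.22, adjusted p = 0.00129), and the cathepsin Ctsh by 0.92 (SE 0.19, adjusted p = 0.00692). The median was 0.32 in LSZ2 and 0.50 in LSZ4, and between 0.38 and 0.48 under every alternative tried. The calls were less steady. With single arrays left out the rises numbered 4 (without the first LSZ4 shSiva2 array), 5 (without the second, either LSZ2 shSiva2 array or the LSZ2 shGFP array), 6 (without the first LSZ2 shLacZ array) and 18 (without the first LSZ4 shLacZ array). The CLEAR element TCACGTGA, read by TFEB, was in 6 of 35 measured members with a RefSeq entry (17.1%), in 0 of the 6 rising members with one, and in 1.61% of tested genes. Tfeb itself was 1 of the 2 falls, and its call was lost when some single array was left out.

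In the autophagy machinery 7 of 43 measured members rose and 0 fell (16.3%). Wipi1, which binds the forming autophagosome, rose by 1.13 (SE 0.15, adjusted p = 0.000417), Sqstm1, the cargo receptor p62, by 1.01 (SE 0.20, adjusted p = 0.00682), and the kinase Ulk2 by 0.63 (SE 0.13, adjusted p = 0.00866). Wipi1 did so by 1.13 (SE 0.14) with shSiva1, a difference of 0.0033 (SE 0.16) between the Siva hairpins. Without the first LSZ2 or second LSZ4 shSiva2 array 4 rises were left, and without the first LSZ4 shLacZ array 9 rose and 2 fell.

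Members of the mTOR pathway, which couples nutrients to growth, numbered 5 higher and 5 lower of 45 measured (22.2%), with a median of -0.039 relative to all genes that had the opposite sign under 2 of 22 alternatives. Beside Prr5l, Ddit4l, an inhibitor of mTOR complex 1, rose by 1.35 (SE 0.13, adjusted p = 5.65e-05), and the kinase subunit Pik3cb by 1.08 (SE 0.17, adjusted p = 0.00122). Rraga, a Rag GTPase that brings the complex to lysosomes, changed by -0.98 (SE 0.12, adjusted p = 0.00031). The probes of Deptor, which counts among the 5 falls by its highest-signal probe, disagreed in sign. Ddit4l was lower with shSiva2 than with shSiva1, a difference of -1.91 (SE 0.16, adjusted p = 5.99e-07), and so was Rraga, by a difference of -0.96 (SE 0.13, adjusted p = 0.000103). Without either LSZ4 shSiva2 array 3 rises were left. The falls numbered 3 without the first LSZ4 shSiva2 array and 9 without the first LSZ4 shLacZ array.

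Wnt signalling had 5 of 28 measured members higher and 1 lower (21.4%). The ligands Wnt7b and Wnt9a rose by 1.99 (SE 0.19) and 1.54 (SE 0.17), the receptor Fzd6 by 1.08 (SE 0.23), and Rnf43, a ligase that removes Wnt receptors, by 1.08 (SE 0.15). Wnt9a had 3 of 7 controls above background. Without the first LSZ4 shLacZ array 7 rose and 2 fell, and the fall was lost without either LSZ4 shSiva2 array.

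In amino acid and one-carbon metabolism 3 of 42 rose and 4 fell (16.7%): beside Aass, Mthfd2l, a mitochondrial folate enzyme, changed by -1.98 (SE 0.18, adjusted p = 3.38e-05) and Gldc, of the glycine cleavage system, by -1.49 (SE 0.25, adjusted p = 0.00195). In the lipid list 1 of 41 rose and 4 fell (12.2%), with the fatty acid receptor Ffar4 at -2.06 (SE 0.25), the binding protein Fabp5 at -1.80 (SE 0.22) (-0.58 with normexp) and Gpam, the first enzyme of triglyceride synthesis, at -1.41 (SE 0.15). Slc16a3, a lactate exporter, changed by -2.33 (SE 0.28, adjusted p = 0.000217) with shSiva2 and by 1.16 (adjusted p = 0.0168) with shSiva1, 1 of 3 calls among 34 glycolytic genes (8.82%). In the cholesterol list 2 of 29 rose and 1 fell (10.3%), in the hypoxia list 1 of 30 rose and 3 fell (13.3%), and 0 of 47 respiratory chain genes passed in limma's fit, where 2 had an unadjusted p under 0.05. Without the first LSZ4 shLacZ array 11 lipid genes, 8 glycolytic genes, 6 hypoxia genes, 2 cholesterol genes and 2 respiratory genes fell. The rises of the amino acid list numbered 0 without the second LSZ2 shSiva2 array and 1 without the first or either LSZ4 shSiva2 array, and 0 cholesterol genes rose in 9 of the 11 fits with an array left out.

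Stress genes of the ATF4 pathway had 5 of 35 members higher and 4 lower (25.7%). Slc7a3, a cationic amino acid transporter, rose by 1.49 (SE 0.28, adjusted p = 0.00444). Aars, alanyl-tRNA synthetase, read 3.75 and 3.66 in LSZ2 and 3.92 and 4.47 in LSZ4 against 4.68 to 6.19 (median 5.06) and changed by -1.37 (SE 0.22, adjusted p = 0.00171), and Cebpb changed by -1.05 (SE 0.21, adjusted p = 0.00644). Of 33 genes of the unfolded protein response 2 rose and 1 fell (9.09%), with the sensor kinase Ern1 at 0.74 (adjusted p = 0.00194) and the oxidase Ero1a at -1.24 (adjusted p = 0.00923). Its rises numbered 4 without the first LSZ4 shLacZ array, and 1 without either LSZ2 or the second LSZ4 shSiva2 array. The rises of the ATF4 group numbered 2 without either LSZ2 or the first LSZ4 shSiva2 array, and 3 without the second LSZ4 shSiva2 array, the LSZ2 shGFP array or the second shLacZ array of either line. Its falls numbered 2 without either LSZ4 shSiva2 array.

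Of 49 replication genes 1 rose and 2 fell (6.12%), and of 40 mitotic genes 1 fell (2.5%). The rise was that of Ccnd2, cyclin D2. Ccnd2 read 1.22 and 0.97 in LSZ2 and -2.27 and -1.89 in LSZ4 with shSiva2, -5.45 to -2.56 (median -4.44) in the controls and -2.27 and -2.25 in LSZ2 and -4.89 and -5.11 in LSZ4 with shSiva1. The shSiva2 arrays lay far above the controls of their line, and the shSiva1 arrays lay just above them in LSZ2 and within their range in LSZ4. Ccnd2 had a change of 3.23 (SE 0.23, adjusted p = 6.45e-06) and a difference from shSiva1 of 3.14 (SE 0.24, adjusted p = 3.4e-07). Of the controls 3 of 7 were above background. Aurka, a mitotic kinase, changed by -1.01 (SE 0.21, adjusted p = 0.00762), and the median of the mitotic list was -0.20 relative to all genes. Of 39 ribosome biogenesis genes 0 rose and 1 fell (2.56%). With single arrays left out, 0 replication genes fell in 9 of 11 fits and 0 ribosome biogenesis genes in 9 of 11. Without the first LSZ4 shLacZ array 6 replication genes, 5 mitotic genes and 4 ribosome biogenesis genes fell.

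Of 21 genes that process small RNAs, 1 rose and 2 fell (14.3%), and none of the 3 kept its call with every array left out. Their values were 1.11 for Ifih1, -0.64 for Drosha and -0.80 for Adarb1, with highest adjusted p = 0.157, 0.072 and 0.139 when a single array was left out.

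The shSiva2 effect ran the same way in both lines for most genes called in either. Of 550 genes called in LSZ2, 535 had a fitted effect of the same sign in LSZ4. There 448 of them were called too, against 6.48% of all genes. Of the 1411 called in LSZ4, 1370 had the same sign in LSZ2. In LSZ2 448 of them were called (31.8%), against 2.53% of all genes. The share of equal signs over all genes was not computed. The lines share no arrays in these contrasts but share 1 estimate of spread per gene. In both lines slide and vector differ between the arms, so equal signs cannot tell them from the hairpin. The test of the difference between the lines called 1 of 21772 genes (0.00459%), with 634 at an unadjusted p under 0.05. The count was 54 without the first LSZ4 shLacZ array. In simulated data with noise independent between arrays, the same test found 35 of 100 genes given a line difference of 2 on the log2 scale.

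The called gene was Pcdh7, a protocadherin (probe at chr5:58120201-58120260, mm9). Pcdh7 read -4.16 and -4.21 in LSZ2 and -7.24 and -7.00 in LSZ4 with shSiva2, against -1.44 to -1.20 in the LSZ2 controls and -7.49 to -6.88 in the LSZ4 controls. The groups did not overlap in LSZ2. All 3 controls and both shSiva2 arrays of LSZ2 were well above background, and 0 of 4 controls and 0 of 2 shSiva2 arrays of LSZ4 were, so that a fall could not have been measured in LSZ4 and the difference is a description. The effect was -2.89 (SE 0.23) in LSZ2 and -0.027 (SE 0.22) in LSZ4, a difference of 2.86 (SE 0.31, adjusted p = 0.0407). Prr5l had a larger fitted difference of -4.19 (SE 0.67) that did not pass (adjusted p = 0.181). It read -1.11 and -1.17 in LSZ2 and -4.65 and -4.06 in LSZ4 with shSiva2.

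**Figure D5:**
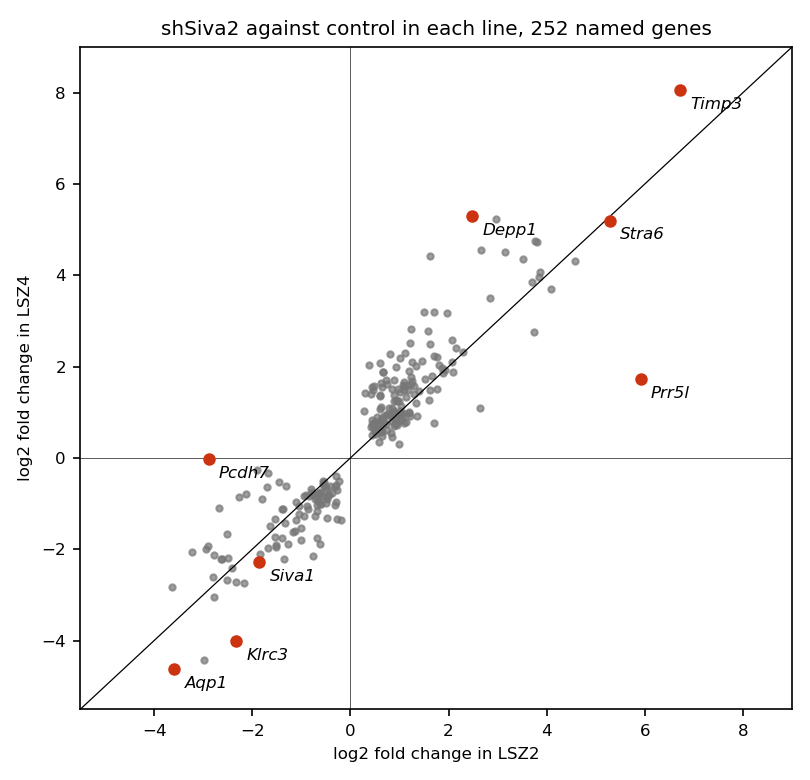
Log2 fold change of shSiva2 against control in LSZ2 (x axis) and in LSZ4 (y axis) for the 252 named genes, with 8 of them marked and the line of equal change drawn. Nearly all points lie in the quadrants of equal sign, which the choice of called genes favours, and Pcdh7 lies at 0 in LSZ4.

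The controls differ in vector and in selection. Against shGFP, selected like shSiva2, 2254 genes passed (10.4%, with 4.72% higher and 5.63% lower), and against unselected shLacZ 1980 (9.09%, with 4.93% higher and 4.16% lower). No gene passed between shGFP and shLacZ in limma's fit, where 1907 had an unadjusted p under 0.05. LSZ2 had only 1 shGFP array, and the lack of calls does not show that the controls were equal. The median of shGFP less shLacZ over all genes was 0.22, and for Siva1 it was 0.48 (SE 0.27). Siva1 changed by -2.36 against shGFP and -1.88 against shLacZ, Timp3 by 8.18 and 6.87, and Gsta3 by 4.33 and 4.28. Of the NRF2 list 13 rose against shGFP and 14 against shLacZ. Of the lysosomal list 9 and 7 rose. These contrasts share the shSiva2 arrays.

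Set directly against shSiva1, on the same slide and in the same vector, 4143 genes (19%) differed, 2297 higher (10.6%) and 1846 lower (8.48%) with shSiva2. This fit over all 15 arrays was added after the data had been seen. Of the 15 largest falls 14 were lower with shSiva2 than with shSiva1, and of the 15 largest rises 10 were higher and 1, Pitpnm3, was lower. Those genes were picked for their values on the same shSiva2 arrays. Of all 1242 genes higher than control 743 differed between the Siva hairpins, and of all 1271 lower genes 646 did.

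The 3 lists of cell type markers were used to check the label. Of 27 lung epithelial markers 11 were well above background on all 11 arrays, among them Sftpb, Sftpd, Abca3, Lamp3 and Krt5, and Sftpc, Sftpa1 and Napsa were on none. Of 14 fibroblast and muscle markers, Col1a2 was above background on all 11 arrays and 9 on none, and the summed linear signal relative to the 75th percentile was 0.189 to 0.422 in controls and 0.292 to 0.566 with shSiva2. Of 25 blood, immune and endothelial markers 9 were above background on all 11 arrays and 10 on none, and the sum was 30.6 to 38.7 in controls and 23.7 to 29.9 with shSiva2. The lung sums were 421 to 1243 and 467 to 940. Of 15 measured lung markers 1 rose (6.67%, against 11.5% of all genes), Sftpb, and its call was lost when some single array was left out. Of 3 measured fibroblast and muscle markers Acta2 rose (33.3%). Of 13 measured blood, immune and endothelial markers 1 rose and 1 fell (15.4%). S100a8 rose by 2.09 (limma, adjusted p = 0.000266), and Mrc1 changed by -1.72 (adjusted p = 0.00124). S100a8 was well above background on at most 3 of 7 controls and 3 of 4 shSiva2 arrays. Without the first LSZ4 shLacZ array 3 of the blood, immune and endothelial markers fell. The part of these markers in other results was not tested.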

How the data were processed

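RNA of 15 samples was hybridised to 1-colour Agilent arrays, and 11 of them entered the main fit. Per the file headers, the authors extracted spot intensities with Feature Extraction 10.7.3.1, which deposited a background-subtracted processed intensity per spot. The series' deposited value table holds log2 values whose scaling is not stated, and it served as an alternative. Spots of a probe were averaged, control spots and outlier flags left out, log2 taken, and the 75th percentile of each array subtracted. The highest-signal probe stood for each gene. Genes well above background on at least 4 of 11 arrays and missing on at most 3 were kept (21772). Of 55681 distinct probes 26582 were named through RefSeq accessions and 492 through synonyms, and 28607 kept the name in the file. Probe positions are those of the files (mm9), and exon or UTR status was not analysed here. The model had line and arm, with 8 residual degrees of freedom, in limma 3.58.1 under R 4.3.3, with lmFit, eBayes and Benjamini-Hochberg adjustment at 0.05. "SE" is the moderated standard error. The number of arrays limits the precision.

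The genes named were the target, the 15 largest called changes in each direction (of 1 sign in both lines, well above background on all arrays of the higher arm, with an ordinary symbol), the called line differences, and called members of 37 gene lists. Which of the list members are given with values was settled after their values were seen, and a few are not reported here. The comparison and the lists were chosen with earlier results of these data known. A simulated table checked the pooled test, which found 55 of 100 genes shifted by 1 (log2), 96 of 100 shifted by 2, and 8 of 21572 left alone. Its noise was drawn independently for each array. It therefore lacks the correlation of 0.34 seen within line and hairpin groups, and its false calls do not give the rate in these data. Alternatives were normexp (offset 50) as the background correction, quantile or median scaling, the value table, other filters and probe rules, blocks, group means, all 15 arrays, and each array left out. Promoters came from RefSeq (GRCm38.p6).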

Additional observations from a re-analysis of the deposited data

Results flagged for a closer look

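Among the 4 shSiva2 arrays, the second LSZ4 array stood apart from the other 3 for a pair of the 66 values tested in this way, where chance marks about 1 in 20. Pitpnm3 read -2.18 there against -2.57 to -2.52 on the others. Thbs1 read 0.177 there against 1.04 to 1.18.

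The shSiva2 effect on Pcdh7 differed between the lines by the test of the difference itself, by 2.86 on the log2 scale (SE 0.31, limma, adjusted p = 0.0407), with a lower signal than control on 2 of 2 arrays in LSZ2. In LSZ4 0 of 6 arrays were well above background, so that a fall could not have been measured there. The call was lost in 9 of the 11 fits that left an array out, all but those without the first LSZ4 shGFP or the first LSZ4 shLacZ array. It was lost as well with normexp, the authors' value table, no filter, the mean of all probes, the replicate block and the random block. The filter of all 11 arrays left its probe out, so the call could not have been kept there.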

How the results depend on the processing

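The call on Siva1 held under every alternative, from -2.20 to -1.90. The pooled count of 2513 became 1400 with 1 mean for each of the 6 line and hairpin groups, 1420 with those groups as a random block (correlation 0.34) and 3832 with quantile scaling. LSZ2 (550) gave 149 with the random block and 1156 with quantile scaling. LSZ4 (1411) gave 769 with group means, 489 with the random block and 2290 with quantile scaling. Against shGFP (2254) the counts were 708 with group means, 1450 without a filter and 3608 with quantile scaling, and against shLacZ (1980) they were 575 with group means and 3246 with quantile scaling. The line difference called 27 genes with group means, 4 with all 15 arrays, 12 with quantile scaling and 0 with the random block, the mean of all probes, no filter, normexp, the replicate block, the authors' value table or the filter of all 11 arrays. With single arrays left out the counts ran from 1585 to 5183 pooled, 109 to 1850 in LSZ2, 613 to 5945 in LSZ4, 0 to 54 for the line difference, 932 to 4388 against shGFP and 1242 to 2672 against shLacZ, each highest without the first LSZ4 shLacZ array. With the replicate block the pooled count was 2484 and the others 429, 1317, 0, 3349 and 2352. Same-numbered replicates deviated together in LSZ4 (correlations of 0.24, 0.22 and 0.66) and not in LSZ2 (-0.068, the only pair of groups there). Between groups of different lines the correlations ran from -0.24 to 0.41. The numbers were therefore not taken to pair the samples. Among named genes only the sign of Csf1 turned, at -0.64 with the mean of all probes. Of 247 named calls, 157 held with any array left out, 172 with the random block and 163 with group means, and normexp lost 26 and made 66 changes over 1.5 times smaller. The causes were not tested. A slide block could not be fitted, because each arm lay on a slide of its own. Genes not well above background in a group have only a bound there.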

Other observations

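Beside Klrc1 and Klrc3, other genes of the Klr family, which encode receptors of natural killer cells, were lower with shSiva2. This family was singled out after its values were seen. Of 14 measured genes 12 fell and 0 rose in limma's fit, against 5.84% of all genes that fell, with a median change of -1.23. Klra1, Klra4 and Klra7 changed by -1.23, -1.23 and -1.47 (adjusted p = 4.68e-05, 5.65e-05 and 7.13e-05), each above background on all 11 arrays. Klra2 (-0.27) and Klra8 (-0.74) did not pass. Probes of this family may share signal between close copies, which was not tested.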
